A study of Mus musculus with 3 samples.

Results

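The KLF4 library of embryonic mouse epidermis was described across genes through its 47155 peaks, which are all rows of its peak file. The 2 precipitated libraries of the series have 105091 peaks in all, and the HDAC3 peaks among them were not used here. Dorsal epidermis had been taken from wild-type embryos at E18.5, and chromatin from fixed, sonicated tissue was precipitated with the KLF4 antibody R&D AF3158. Input chromatin from the same kind of tissue, with no antibody, served as the control. Each was 1 library with no replicate, and the labels do not say whether embryos were pooled. No value below therefore has a replicate error, and the intervals on shares (exact Clopper-Pearson, 95%) cover counting error only. Of 61432711 KLF4 tags, 6.81% were in peaks. Back-calculated from the column of KLF4 tags that the caller scaled to the input, the input had about 27800000 tags, which leaves 2.58 input tags per peak width if spread evenly.

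KLF4 is a zinc finger transcription factor of the Krüppel-like family, whose members bind CACCC and GC-rich sites. In the skin it is made mainly in the suprabasal layers, where keratinocytes flatten, cross-link their envelope and deposit the lipids of the outer barrier, and mice without it fail to complete that barrier. It is also one of the factors used to reprogram cells to pluripotency. A peak marks chromatin enriched by the antibody, and the nearest gene is not necessarily the gene regulated.

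Sequences under the highest peaks just upstream of the start in matched promoter windows are shown first, as examples of what the antibody recovered there. Peaks near gene ends outside these windows are not printed, even where they were higher. RefSeq promoter windows (GRCm38.p6, 250 bases before to 50 after a gene start) were matched to 17492 of 21887 protein-coding genes, 79.9%. A peak was centred inside the first window of 1321 of these genes, and 1170 of those centres (88.6%) lay upstream of the start, with a median position 113 bases before it. The window itself is mostly upstream of the start, so evenly placed centres would also lie mostly upstream. Among the 939 windows with the centre 1 to 200 bases upstream, the 8 with the highest peak are printed, from 50 bases before to 50 bases after the peak centre and not past the gene start. They read 5′ to 3′ along the gene, and capitals mark a match on either strand to CCACACCC, CCACGCCC or CCCCACCC, 3 forms of the CACCC-type site.

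Tmem79, chr3:88334461-88334561, minus strand: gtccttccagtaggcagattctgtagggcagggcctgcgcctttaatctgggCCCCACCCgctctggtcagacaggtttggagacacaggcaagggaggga
Pde12, chr14:26669922-26670022, minus strand: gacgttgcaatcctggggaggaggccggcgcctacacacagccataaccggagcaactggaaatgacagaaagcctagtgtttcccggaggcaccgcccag
Lypd5, chr7:24349065-24349165, plus strand: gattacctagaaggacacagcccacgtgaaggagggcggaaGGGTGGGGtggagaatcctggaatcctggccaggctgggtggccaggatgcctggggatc
Hebp2, chr10:18546077-18546147, minus strand: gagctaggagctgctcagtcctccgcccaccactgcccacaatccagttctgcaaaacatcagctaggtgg
Krtdap, chr7:30787720-30787820, plus strand: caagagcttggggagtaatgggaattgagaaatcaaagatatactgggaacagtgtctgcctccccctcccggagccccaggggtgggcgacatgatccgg
Zfand2a, chr5:139484492-139484546, minus strand: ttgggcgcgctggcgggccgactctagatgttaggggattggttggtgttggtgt
Gpx1, chr9:108339016-108339079, plus strand: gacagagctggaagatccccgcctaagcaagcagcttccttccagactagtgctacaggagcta
Ly6g5b, chr17:35118559-35118654, minus strand: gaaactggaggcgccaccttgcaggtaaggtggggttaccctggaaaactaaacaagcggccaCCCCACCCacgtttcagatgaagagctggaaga

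Of the 8 stretches, 3 held a match, each to CCCCACCC: those of Tmem79, Lypd5 and Ly6g5b. Tmem79, which encodes mattrin of the lamellar granule system, had a normalized tag count of 164.9, that is, tags in the peak scaled to a library of 10000000 tags. Its peak was 91.8-fold over input. Lypd5, a member of the Ly6 and uPAR domain family, had 118 (41.1-fold) and its neighbour in rank without a match, Pde12, a nuclease that removes poly(A) from mitochondrial RNA, had 126.2 (117-fold). Hebp2, a haem-binding protein gene, had 102.4, and Krtdap, which encodes a secreted protein of differentiating keratinocytes, had 96.5. Zfand2a, a stress-induced zinc finger gene, had 82.7, and the glutathione peroxidase gene Gpx1 and Ly6g5b had 81.6 each. A stretch without a match can still hold the shorter CACCC, as that of Krtdap did on the other strand. The 3 peaks with a match ran from 81.6 to 164.9 and the 5 without one from 81.6 to 126.2. All 8 were chosen by height, so these ranges do not relate a match to height.

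Across all promoters the CACCC-type letters were more frequent where KLF4 had a peak. At least 1 of the 3 forms was found in 26.9% of windows (25.5 to 28.3; 1097 of 4083) of genes with a peak within 1 kb of either end, in 17.5% (16.8 to 18.1; 2340 of 13409) of windows of genes without one and in 19.6% of all 17492 windows. It was found in 32.3% (29.8 to 34.9; 427 of 1321) where the peak centre lay inside the window. In the higher 50% of these windows by normalized tag count the share was 35.6% (31.9 to 39.4; 237 of 666). In the lower 50% it was 29.0% (25.6 to 32.6; 190 of 655). By form, CCACACCC was in 7.12% of windows with a centre inside and in 3.66% of all windows, CCACGCCC in 13.4% and 7.11%, and CCCCACCC in 16.3% and 10.8%. Of other elements searched on both strands, the GC box CCCCGCCC was in 30.7% and 23.8%, the AP-1 site TGANTCA in 11.1% and 7.03%, the CCAAT box in 38.5% and 39.2% and the AP-2 type site GCCNNNGGC in 18.2% and 19.6%. CCCCACCC and CCCCGCCC can overlap one another in a C-rich run, so their shares are not independent.

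Base composition differed between these sets, and its part in the shares was not tested. Median GC content was 57.0% in windows with a centre inside, 59.7% in windows of genes with a peak within 1 kb of an end and 54.7% in windows of genes without. Among windows of up to 50% GC, the 3 forms were found in 37 of 206 with a centre inside and in 308 of 4909 (6.27%) without a peak within 1 kb. At 60 to 70% GC they were found in 39.6% (34.7 to 44.7) and 27.1% (25.6 to 28.7). Over 70% GC, windows of genes with a peak within 1 kb had 28.7% and those without 30.1%, and 3 windows had a centre inside. Inside the 1321 windows, CCACACCC occurred 0.404 times per kb within 50 bases of the peak centre and 0.181 times per kb farther away, a ratio of 2.23. The ratio was 1.32 for CCCCACCC, 1.05 for CCACGCCC, 1.39 for TGANTCA, 0.976 for CCAAT and 0.600 for CCCCGCCC. Position relative to the gene start was not held fixed in these ratios. The counts are small for the first element, with 49 matches near and 48 far.

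How peaks were spread over genes was described by giving each peak to the protein-coding gene with the nearest annotated end (GRCm38.p6). The 47140 peaks on chromosomes gave 47186 assignments, since 41 peaks had tied nearest genes. Of 21887 protein-coding genes, 12974 (59.3%) had at least 1 peak and 8913 had none. With the higher-scored 50% of peaks, 8613 had one. The median was 1 peak per gene and the mean 2.16, and 4366 genes had exactly 1. A total of 911 genes (4.16%) had 10 or more and 143 had 20 or more. The 911 genes took 29.4% of the assignments, and the 10% of genes with the most peaks took 49.1%.

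**Figure D1:**
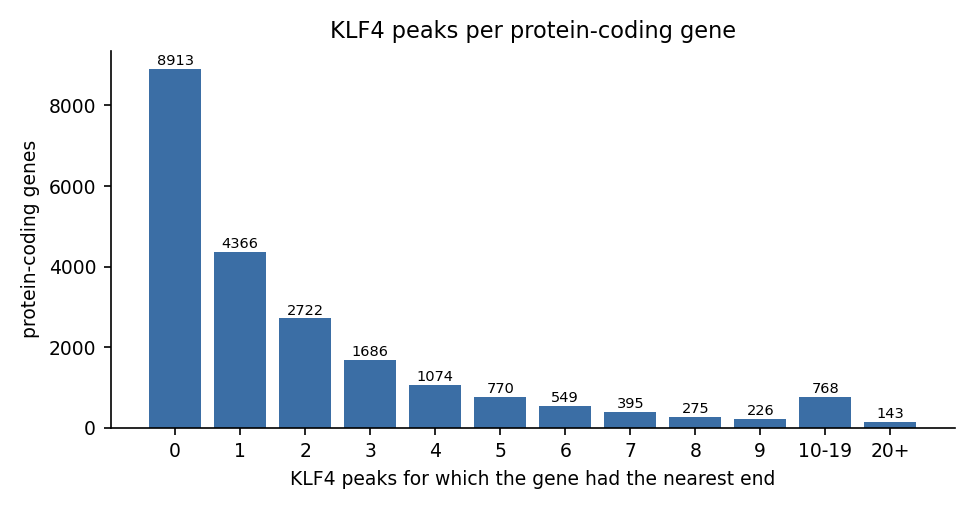
Number of protein-coding genes (vertical axis) by the number of KLF4 peaks for which they had the nearest end (horizontal axis), with each count above its bar. Genes without a peak, 8913, form the tallest bar, and 143 genes have 20 or more.

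The number of peaks went with how much chromosome lay nearest to a gene, called its territory here. Median territory was 32.1 kb for genes without a peak, 32.1 kb for genes with 1, 69.1 kb for the 7697 genes with 2 to 9 and 277 kb for genes with 10 or more. Across genes, peak number and territory had a Spearman correlation of 0.386 (n = 21887 genes, which share peaks' neighbourhoods and are not replicates). Peak density ran the other way: the 5472 genes with the smallest territories had 5.03 peaks per 100 kb, the next groups of that size 3.73 and 3.08, and the group with the largest territories 1.22. The share of genes with a peak was 42.7% in the first of these groups and 73.0% in the last. Genes with 10 or more peaks had 3.77 peaks per 100 kb, against 1.75 over all territories. They were picked by peak number, which itself enters the density, so a high value is favoured by the choice.

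The genes with the most peaks included regulators of transcription and of cell signalling. Tle3, a Groucho corepressor gene on chromosome 9, had 59 peaks with a summed normalized tag count of 1298, the highest sum of any gene. Its highest peak, 92.6 and 86.6-fold over input, lay 30962 bp outside the gene, and none of its peaks was within 1 kb of an end. Its territory of 540 kb held 10.9 peaks per 100 kb. Epha4, an Eph receptor tyrosine kinase gene, had 58 peaks in 1345 kb, and its highest (68.4) was 531691 bp from the gene. Gata3, a transcription factor of epidermal differentiation, had 56, none within 5 kb of an end, the highest (72.4) 481074 bp away. The orphan nuclear receptor gene Rora had 55, with the highest (85.1) inside the gene. Of the 5 leading genes, Klf4 included, 4 had their highest peak outside the gene, and the same share over all genes is not given here. They were picked by peak number, which went with territory, so a highest peak far from the gene is favoured by the choice.

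The other genes among the 10 with the most peaks varied in density and height. Adgrl2, an adhesion receptor gene, had 50 peaks in 2314 kb, or 2.16 per 100 kb. Gm826 and Ofcc1 had 47 each, with sums of 973 and 752. Cited2, a transcriptional coregulator gene, had 45 and a highest peak of 28.3. Myc, the proto-oncogene of growth control, had 43 peaks, the highest of 68 at 71568 bp. By summed tag count Ablim1, an actin-binding LIM protein gene, ranked behind Tle3 alone, with 1084 over 34 peaks and 11.1 peaks per 100 kb. Zmiz1, a coactivator gene (813 over 41 peaks), and Tiam1, a Rac exchange factor gene (744 over 37), were also among the 10 largest sums.

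Klf4 itself had 56 peaks and a summed normalized tag count of 996 in a territory of 677 kb, 8.28 peaks per 100 kb. None was inside the gene or within 1 kb of it. The nearest was 2304 bp from the gene, at chr4:55534687-55534871, with a normalized tag count of 19.5. On the higher-coordinate side there were 49 peaks, reaching 589877 bp away, and on the other side 7, reaching 55804 bp. The highest, at chr4:55936605-55936789, was 404222 bp away, had 96.4 and was 53.8-fold over input with a focus ratio, a measure of sharpness explained with the peak heights, of 0.888. The peak 5389 bp away on the lower side had 50 and a focus ratio of 0.90.

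Of the 10 genes with the highest single peaks, 8 had fewer than 10 peaks. The others were Ablim1 (34) and LOC115488016 (10), where 4.16% of all protein-coding genes had 10 or more. Gltp, which encodes a glycolipid transfer protein, had the peak of 226.9, one of 9 in a territory of 35.4 kb. Krt80, a type II keratin gene, had the next (206.7) 20785 bp outside the gene. Rdh12, a retinol dehydrogenase gene, had 1 peak in all, of 193.9, 2746 bp inside it. The Ablim1 peak of 181.5 lay 132975 bp inside the gene, and LOC115488016 had one of the same height 32674 bp away. Arid3b, an ARID family DNA-binding protein gene, followed with 175.3, and Niban2 with 171.6 inside the gene. Tmem184a had 170.6 at 10 bp from its end, Dnah17, a dynein gene, 167.7 and Tmem79 164.9. Of these 10 peaks, those of Tmem184a and Tmem79 were within 1 kb of a gene end.

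Most KLF4 peaks were far from gene ends. The median distance to the nearest protein-coding gene end was 15503 bp (quartiles 4269 and 46942 bp), and 51.5% of peaks (24277 of 47140) were inside a protein-coding gene. Within 1 kb of an end lay 10.8% (10.5 to 11.1; 5085 peaks), from 10 to 50 kb 35.9% and beyond 100 kb 12.6% (5950 peaks). By genes rather than peaks, 23.1% (5051) had a peak within 1 kb of an end. Median normalized tag count was 11.4 within 1 kb, 11.7 at 1 to 5 kb, 9.44 at 50 to 100 kb and 8.14 beyond 100 kb. The spread within a class was wider than that difference: the quartiles were 7.33 and 17.9 within 1 kb and 5.05 and 13.7 beyond 100 kb. Mean control tags, the input tags under a peak, were 4.60 within 1 kb and 3.27 beyond 100 kb, and the median fold over input was 7.46 and 8.60 in these classes.

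The strand of the 17492 genes in the promoter table separated gene starts from the other ends. A peak lay within 1 kb of the start of 19.4% of them (3394 genes) and within 1 kb of the other end of 5.79% (1012 genes). For the 11079 genes over 10 kb these shares were 21.4% and 5.56%. Peak centres were densest in the 0.2 kb before the start, at 51.7 per 1000 genes. There were 13.3 at 200 to 400 bp after the start and 16.2 at 600 to 800 bp after it. Around the other end the lowest value was in the last 0.2 kb of the gene, at 3.43, and the highest 8.40. The 3328 peaks at starts had a median normalized tag count of 11.4 and the 833 at other ends alone 11.7. Mean control tags were 4.75 and 4.22 and the median fold over input 7.09 and 8.71.

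**Figure D2:**
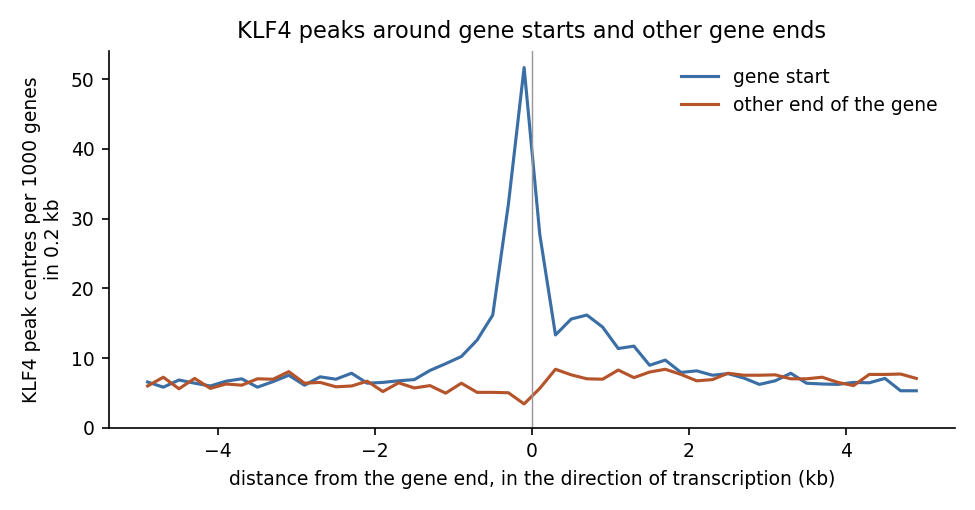
KLF4 peak centres per 1000 genes in steps of 0.2 kb (vertical axis) against distance from the gene start or the other gene end in the direction of transcription (horizontal axis, kb), for 17492 protein-coding genes. The curve at starts reaches 51.7 just before the start and 16.2 after a dip at 13.3, while the curve at other ends stays between 3.43 and 8.40.

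Peak height, measured as normalized tag count, varied widely over the list. It ran from 2.44 (15 tags of the library) to 226.9 (1394 tags), with a median of 10.4 and quartiles of 6.35 and 17.4. In 10 equal groups ordered by height, the highest group, of 29 or more, carried 31.5% of the summed normalized tag count and the lowest 2.48%. Peaks near the calling limits were common: 14.7% were less than 5-fold over input and 19.1% less than 5-fold over the surrounding 10 kb, where at least 4-fold was required. The median was 8.60-fold over input and 7.39-fold over the local region. The authors' score ordered peaks almost as normalized tag count did (Spearman 0.999 over 47155 peaks).

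The focus ratio, the share of a peak's tags on the side of the centre expected for a single sharp binding site, was related to height. Its median was 0.769 (quartiles 0.714 and 0.824; range 0.465 to 0.995). Over the 10 height groups the median was 0.750, 0.744 and 0.746 in the lowest 3 and 0.817 in the highest, where the quartiles were 0.767 and 0.858. The quartile ranges of neighbouring groups overlapped throughout. Over all peaks the Spearman correlation of focus ratio was 0.239 with normalized tag count, 0.436 with fold over the local region and 0.0837 with control tags. These correlations are across peaks of 1 library, which share its depth.

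Among the 472 highest peaks, 1% of the list, the median focus ratio was 0.850 and the range 0.638 to 0.965. The most focused was at chr4:106313958-106314142, 1930 bp outside Usp24, a deubiquitinase gene, with a normalized tag count of 72.4. A peak of 156.4 at 7816 bp outside Rhbg, an ammonium transporter gene, had 0.959. A peak of 94.6 inside Hacd3, which acts in very long chain fatty acid elongation, had 0.956. All 3 stood at least 52.5-fold over their local region. The least focused, with 0.638, lay 22157 bp outside Fos, the AP-1 gene, had a normalized tag count of 70.5 and was 10.3-fold over its local region. Peaks outside Pdlim4 (0.666) and inside Esrp2, an epithelial splicing regulator gene (0.677), followed, at 16.2-fold and 15.2-fold over the local region.

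Input under the peaks was above an even spread and was higher under higher peaks. Mean control tags were 3.91 per peak with empty peaks set to 0, which is 1.52 times the 2.58 of an even spread. No input tag was found at 1946 peaks, 4.13% (3.95 to 4.31), and the file writes 0.5 there. This share was 7.58% of peaks at least 8-fold over input and 1.19% of the higher-scored 50%. Between 1 and 5 control tags stood under 73.1% of peaks, and 791 peaks (1.68%) had more than 10. Mean control tags were higher in each height group than in the one before, from 1.20 in the lowest to 6.15 in the highest (Spearman 0.632 over peaks). The caller required at least 4-fold over input, so a low peak could be listed only with few control tags. The part of this limit in the differences between height groups was not tested. The share without an input tag was 19.4% in the lowest group and 0.806% in the highest. Fold over input thus did not follow height at the low end: its median was 9.05 in the lowest group, 6.03 in the third and 20.7 in the highest. At peaks without an input tag the median fold was 25.3 and the median normalized tag count 4.56, and such a fold rests on the written 0.5.

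**Figure D3:**
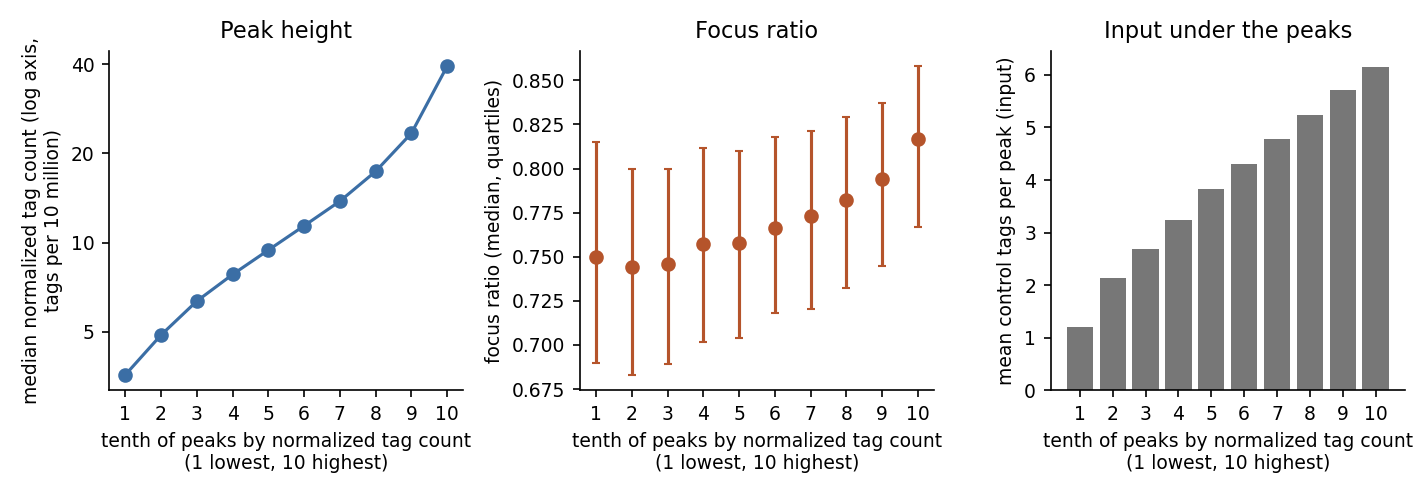
Median normalized tag count (left, log axis, tags per 10000000), focus ratio (middle, median with quartiles) and mean input control tags per peak (right) for 10 equal groups of KLF4 peaks ordered by normalized tag count, lowest first. Mean control tags go from 1.20 to 6.15 and the median focus ratio from 0.750 to 0.817 between the lowest and the highest group.

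KLF4 peaks were unevenly spaced. Across 47119 pairs of neighbours the median distance between centres was 14192 bp (95% order-statistic interval 13954 to 14430), with quartiles of 5928 and 37174 bp, while the mean was 56145 bp, or 54251 bp without the Y chromosome. The interval covers this peak list alone: with peaks at least 8-fold over input the median was 25906.5 bp. Of the pairs, 4.50% were within 1 kb, 20.7% within 5 kb and 80.9% within 50 kb, and 345 pairs (0.732%) were more than 1 Mb apart. The caller keeps peaks 370 bp apart, and 6 distances were shorter, down to 343 bp. Of 27227 windows of 100 kb, 48.0% had a peak. The 3875 windows with 5 or more, 14.2% of the windows, held 59.9% of the peaks.

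The distribution of short distances had a step at 5 kb. Pairs per kb of distance numbered 2501 at 1 to 2 kb and 1556 at 4 to 5 kb, then 2171 at 5 to 6 kb and 1437 at 9 to 10 kb. The caller had required each peak to exceed its surrounding 10 kb by 4-fold, a region that reaches 5 kb to each side if centred on the peak. Peaks with a neighbour at 1 to 5 kb had a median of 6.72-fold over the local region, those with the nearest neighbour at 5 to 10 kb 8.03-fold, and 28389 putative peaks were removed by that filter. Its part in the step was not tested.

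**Figure D4:**
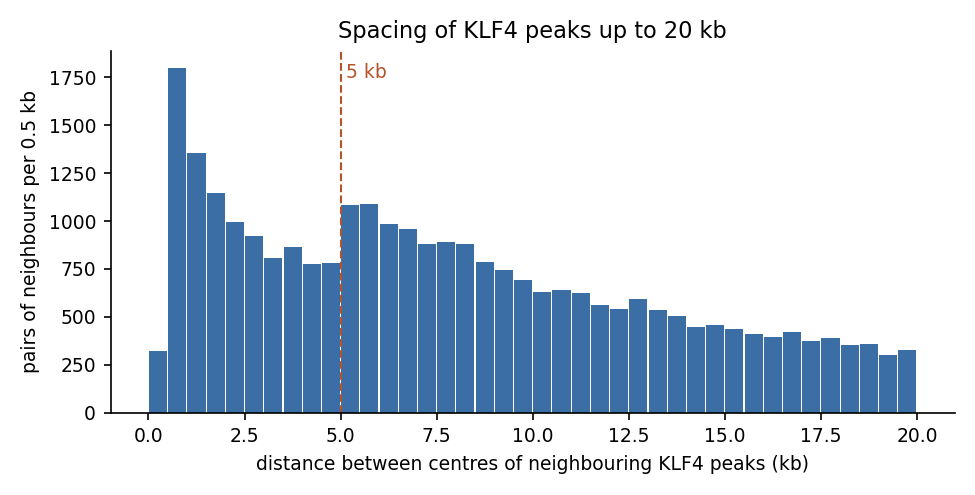
Number of pairs of neighbouring KLF4 peaks per 0.5 kb (vertical axis) by the distance between their centres up to 20 kb (horizontal axis). The dashed line marks 5 kb, where the number steps up from 1556 pairs in the kb before to 2171 in the kb after.

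Peaks with close neighbours had higher medians. Median normalized tag count was 13.7 (quartiles 9.12 and 21.5; 4139 peaks) with a neighbour within 1 kb, 13.5 at 1 to 5 kb, 10.6 at 5 to 10 kb, 8.14 at 10 to 50 kb and 5.53 (quartiles 3.74 and 9.12; 3570 peaks) where the nearest neighbour was more than 50 kb away. Control tags moved with it, at a mean of 4.62 and 2.49 in the closest and farthest class, and their part in the result was not tested. The median fold over input was 8.90 at the close end and 8.60 at the far end. The focus ratio was lowest, 0.753, with a neighbour within 1 kb and highest, 0.784, beyond 50 kb.

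Gene lists of the epidermis were then set beside all protein-coding genes, of which 59.3% had a nearest peak, with a median of 1 per gene and 1.75 peaks per 100 kb. Genes of the cornified envelope, the cross-linked shell of the outermost cells, had a peak in 34 of 36 cases (94.4%), a median of 3.5 and 9.45 peaks per 100 kb. Their median territory was 27.0 kb. The territory groups with medians of 13.0 and 31.9 kb had 5.03 and 3.73 peaks per 100 kb. Tgm3, a cross-linking transglutaminase gene, led with 13 peaks, then the sciellin gene Scel with 11. The filaggrin gene Flg and the protease gene Casp14 had 9 each, with highest peaks of 30 and 31.1, at 21874 and 6 bp from the end. Asprv1 and Sprr2a1 had none. Barrier lipid genes had a peak in 28 of 30 cases, with a median of 6, led by the fatty acid elongase gene Elovl6 (20), the lipase cofactor gene Abhd5 (18) and Elovl4 (14). Elovl3 and Fa2h had none.

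Every junction gene and every gene of the EGF receptor list had a nearest peak at any distance. Counting only peaks nearest to the gene and within 5 kb, 18 of 26 junction genes and 12 of 21 EGF receptor genes had one. With any peak within 5 kb of an end, the counts were 20 and 13, against 10075 of all 21887 protein-coding genes. The 26 junction genes had a median of 5.5, and among them the claudin gene Cldn1 had 19 and the tight junction scaffold gene Tjp1 had 17. The 21 genes of the EGF receptor list, which holds the receptors of that growth factor family, their ligands and regulators, had a median of 5. The feedback inhibitor Errfi1 had 17 with a highest of 88.9, as many as the ligand gene Areg, Egfr had 18 and Lrig3 19. The large territories of that list, a median of 130 kb, left 2.30 peaks per 100 kb. Immediate early genes had a peak in 18 of 20 cases, with Jun (18) and Fos (13) behind Myc, and Fosl1 and Zfp36 had none. Stress keratin and alarmin genes had a peak in 19 of 20, led by the NF-kB inhibitor Tnfaip3 (15), and Il18 had none.

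Layer-specific genes had peaks in most cases. Spinous layer and Notch genes had a peak in 18 of 21 cases, with a median of 5, and 9 had one within 1 kb of an end and 16 within 5 kb. Over all 21887 protein-coding genes, 5051 had one within 1 kb of an end and 10075 within 5 kb. Hes1, a Notch target, had 26 peaks, the Notch ligand gene Jag1 17 and Notch2 16, and Hey1, Jag2 and Maml1 had none. Basal layer and hemidesmosome genes had a peak in 19 of 21, with a median of 4, and 3 (14.3%) had one within 1 kb of an end, where 23.1% of all protein-coding genes had one, and 13 within 5 kb. The difference between the layers was not tested. Counting only peaks nearest to the gene and within 5 kb, 11 basal genes had one. Sox6 had 25 peaks, Trp63, the p63 gene that maintains the basal layer, 15 and the laminin gene Lama3 11, and Krt5 and Bcam had none. Epidermal transcription factor genes had a peak in 38 of 39 cases, with a median of 12, and 22 of them had 10 or more, where 4.16% of all protein-coding genes did. Their median territory was 218 kb, against 46.3 kb for all genes. Hoxa13 had none.

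In the family of KLF4 itself, 21 of 26 KLF and SP genes had a peak, with a median of 4.5. Klf6 had 37 and Klf5, a basal layer member, 25, behind Klf4. Klf1, Klf15, Sp4, Sp5 and Sp9 had none. Cytosolic ribosomal protein genes, active in all cells, had a peak in 24 of 30 cases but a median of 1, and 18 had one within 1 kb of an end. Their territories were small, 12.2 kb at the median, and their density was 6.72 peaks per 100 kb, where all genes of the smallest territories had 5.03. With peaks at least 8-fold over input, 15 of the 30 had one, where 9874 of all 21887 protein-coding genes did.

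Markers of other cell types had peak densities near or below the 1.75 of all genes, while the share of members with a peak was above the 59.3% of all genes in 3 of 6 lists. Peaks per 100 kb were 0.718 for 10 melanocyte genes, 0.967 for 10 endothelial genes, 1.10 for 12 dermal fibroblast genes, 1.67 for 12 neuron and Schwann cell genes, 1.85 for 12 skeletal muscle genes and 1.97 for 11 immune cell genes. Median territories in that order were 106, 162, 221, 235, 32.45 and 33.1 kb. The territory groups with medians of 31.9, 67.85 and 230 kb had 3.73, 3.08 and 1.22 peaks per 100 kb. Members with a peak numbered 8 (80%), 5 (50%), 9 (75%), 7 (58.3%), 8 (66.7%) and 6 (54.5%) in the same order. Counting only peaks nearest to the gene and within 5 kb, the first 5 of these counts were 3, 2, 4, 4 and 5. With any peak within 5 kb of an end, the 6 lists had 4, 2, 4, 5, 7 and 6 members. Over all 21887 protein-coding genes, 10075 had one. The endothelial gene Pecam1 had 11, and the neuronal gene Map2 had 19. Of 12 liver genes, 2 had a peak (Apob, 6, and Ttr, 2), and Alb, Ahsg and Apoa1 had none. Of 1110 olfactory receptor genes, 47 (4.23%; 3.13 to 5.59) had a peak, with 0.197 peaks per 100 kb. A peak says nothing of expression, so these lists do not measure which cells the tissue held.

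**Figure D5:**
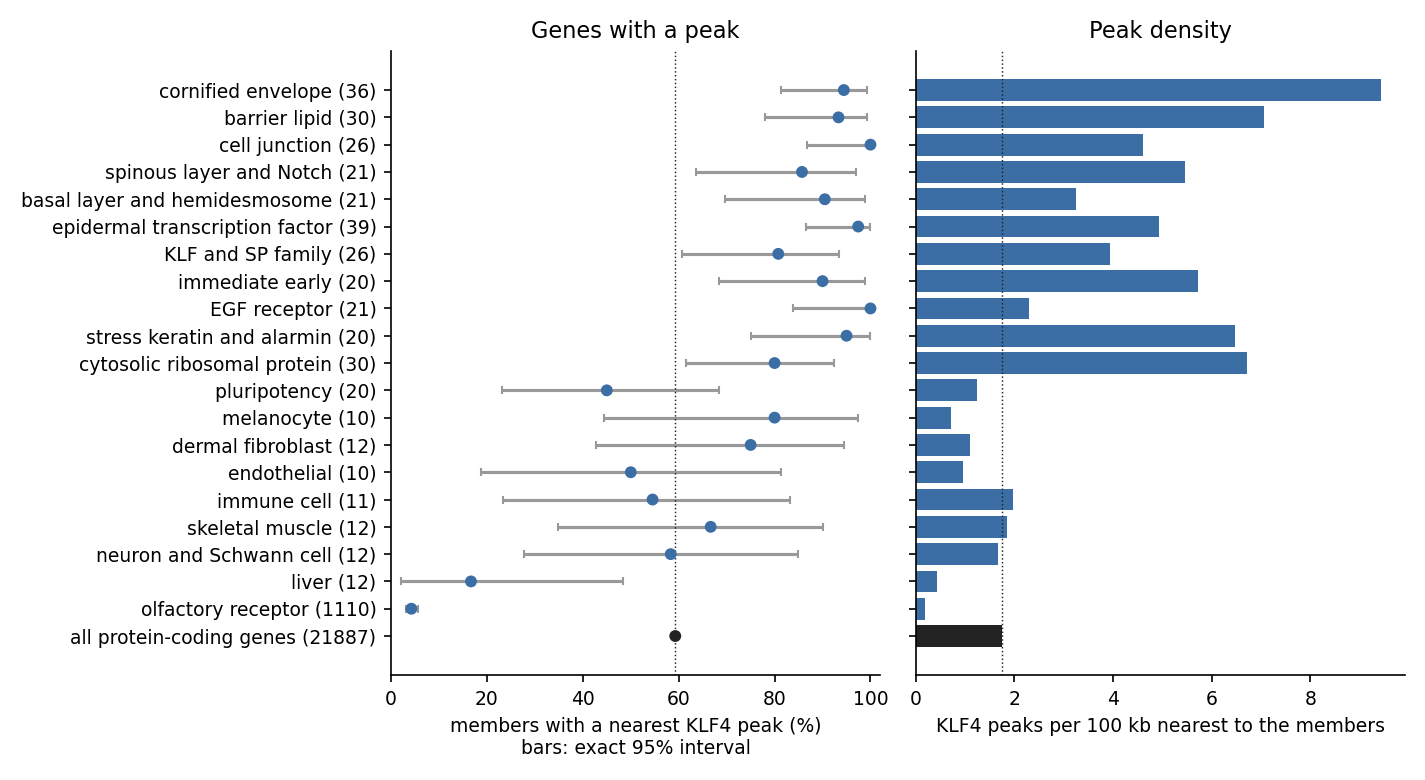
Share of members with a nearest KLF4 peak with its exact 95% interval (left) and KLF4 peaks per 100 kb nearest to the members (right) for each gene list, with the number of members in parentheses and all 21887 protein-coding genes in black. Cornified envelope genes are at 9.45 peaks per 100 kb and olfactory receptor genes at 0.197, with all genes at 1.75. Densities are not matched for territory size.

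Peak density was lower on the X and Y chromosomes than on each autosome. The sex of the embryos was not given in the labels, so the values of X and Y cannot be set against copy number. Peaks per Mb ran from 13.7 on chromosome 14 to 30.0 on chromosome 11 and followed gene density (Spearman 0.788 over 19 autosomes). Median normalized tag count ran from 9.28 on chromosome 13 to 12.9 on chromosome 11. On the X chromosome there were 841 peaks, 4.93 per Mb, with a median normalized tag count of 6.02, and 33.3% of its 966 genes had a peak, against 47.7 to 70.6% on autosomes. Control tags were also low there, at a mean of 2.20 against 3.62 to 4.35, and its median fold over input, 9.27, was that of chromosome 11. The Y chromosome had 11 peaks. How much of X and Y reads could be placed on uniquely was not tested.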

How the data were processed

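KLF4 and input chromatin of E18.5 mouse epidermis were sequenced, 1 library each. The submitters' processing notes name bcl2fastq, STAR, HOMER and the build GRCm38.p5, without versions. Peaks, per the file headers, were called by HOMER as regions of 185 bp in factor style against the input, at least 370 bp apart, with fragment length 168 bp, at least 4-fold over input and over the local 10 kb, a p-value of 0.0001 for both and a false discovery rate of 0.001. Of 205931 putative peaks, 63.3% were removed against input, 28389 against the local region and 4 as too clonal.

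Per the file headers, the deposited normalized tag count is a signal scaled to 10000000 tags, and the control tags are a coverage of the input. The deposited score, the fold ratio columns, the focus ratio (a fraction) and the p-value columns come from the authors' caller. The p-values were not used.

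Peak centres were given to the nearest end of 21887 protein-coding genes (RefSeq, GRCm38.p6; primary coordinates are shared with p5), ties to each gene. A territory is the sequence nearest to a gene's ends. The 15 peaks on unplaced contigs entered only the distributions of whole-list values. Motifs were searched on both strands in the first RefSeq promoter window of a gene; its start equalled the end in the gene table for 60.5%. Python 3.11.15, pandas 2.3.3, numpy 2.4.6 and scipy 1.17.1 were used, and the code was checked on planted peaks. No test was made, since there was 1 library. The peaks, gene lists and rules were chosen with earlier results of these data known. Genes named are the 10 with the most peaks, the largest sums and the highest peaks, Klf4, and in each list the 3 with the most peaks and up to 3 without; peaks, windows and stretches named are the 3 most extreme by focus ratio in the top 1%, control tags, spacing and density. A gene that the rule names is not reported here. Of 12 immune genes, 11 were matched in the gene table; older symbols were matched through its synonyms.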

Additional observations from a re-analysis of the deposited data

How the results depend on the processing

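No paired analysis was possible because there was 1 library per group. With peaks at least 8-fold over input, 8.97% lay within 1 kb of a gene end, the median spacing was 25906.5 bp, the median normalized tag count 13.8, the median focus ratio 0.782 and the share without an input tag 7.58%. With the higher-scored 50% of peaks these were 12.0%, 16479.5 bp, a focus ratio of 0.786 and 1.19%, and 8613 genes had a peak. Without peaks at the lowest control value the median normalized tag count was 10.7. A window of 5 kb held 27.4% of peaks, and 7.06% of all peaks were within 1 kb of a start of the genes with a strand. The number of genes with a peak was within 1.5 times of 12974 with 8-fold peaks (9874), nearest gene bodies (12878) and peaks within 50 kb (12446).

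Among the gene lists, members with a peak fell by more than 1.5 times with 8-fold peaks for ribosomal protein (15), liver (1) and olfactory receptor genes (31). With peaks within 5 kb alone they did so for basal layer (11), EGF receptor (12), melanocyte (3), dermal fibroblast (4), endothelial (2), skeletal muscle (5), neuron and Schwann cell (4), liver (0) and olfactory receptor genes (20). The CACCC-type share was 24.4% with a peak within 5 kb and 32.3% with the centre inside the window, a setting chosen after seeing the data. With 1 library and few input tags per peak, a fold over input of a single peak is imprecise.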

Other observations

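Some stretches held many peaks in little sequence. The 100 kb window with the most, 19, was on chromosome 17 from 29400001 to 29500000 and reached Pim1, a serine/threonine kinase gene, with a highest normalized tag count of 71.8 and a median of 28.2. A window inside Ablim1 (chromosome 19, from 57100001) had 18, as had one on chromosome 9 from 43100001 with Arhgef12, Tlcd5 and Pou2f3, a POU factor gene of the epidermis, and one on chromosome 15 from 85200001 over Fbln1, a matrix protein gene. Median focus ratios in these windows were 0.750, 0.784, 0.782 and 0.738, and mean control tags 6.58, 5.83, 6.17 and 5.50.

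Long stretches held none. The longest, 89.5 Mb, covered most of the Y chromosome with 246 protein-coding genes. The next were on the X chromosome, 8.35 Mb with 11 genes, among them Nap1l3 and Cldn34c1, and 7.40 Mb with 23, among them Slx. Whether reads could be placed uniquely in these stretches was not tested, so the lack of a peak there need not be a lack of KLF4.

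Genes of the pluripotency network, which KLF4 joins in reprogrammed cells, had a nearest peak in 9 of 20 cases (45%; 23.1 to 68.5). That interval includes the 59.3% of all protein-coding genes. The list had 1.25 peaks per 100 kb, against 1.75 for all protein-coding genes. Its median territory was 76.6 kb. In the territory group with a median of 67.85 kb, 65.8% of genes had a peak, with 3.08 peaks per 100 kb. Sox2 had 13 peaks in a territory of 838 kb, the highest of 20 at 94287 bp, Tbx3 had 6 and Esrrb 4. Dppa3, Dppa4 and Fgf4 had none.

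The peak with the most control tags, 48, lay on chromosome 6 from 47778135 to 47778319, 17914 bp outside Pdia4. It had a normalized tag count of 72.4, was 4.19-fold over input and 79.8-fold over the local region, and its clonal ratio was 1.36, where the median of all peaks was 0.91. The next had 24 (27810 bp outside Dynlt1b) and 23 (161383 bp outside Ofcc1), at 4.56-fold and 4.98-fold over input.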
